A study of Mus musculus with 4 samples.

Results

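The sequences described here are tRNA fragments that were bound to the Ago proteins in mouse brain and that came from the tRNAs for glycine (Gly), glutamate (Glu), valine (Val), lysine (Lys), aspartate (Asp) and histidine (His). They were chosen by name and not by level. A sequence was taken when it matched no miRNA, was named as a mouse tRNA, did not end in CCA and had a first tRNA name that began with 1 of these 6 amino acids. This gave 1526 of the 85704 sequences of the table: 456 of Gly, 348 of Glu, 274 of Val, 156 of His, 155 of Asp and 137 of Lys. The other tRNA fragments without CCA numbered 3126, and 860 tRNA fragments ended in CCA.

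The series compared BL6 mice of 2 months with BL6 mice of 18 months, with 2 libraries per age, and no transgene or treatment was named for either age. Each library was made from cortex and hippocampus combined, from which the Ago proteins were pulled down with a GW182 peptide that binds them, and the RNA was selected on a gel at 19 to 35 nucleotides (nt). The labels do not say whether the libraries of an age came from separate mice, so the p-values below measure only the spread between these libraries. Levels are in CPM, the reads of a sequence scaled to the same total in each library, and 3 reads were worth 0.263 to 0.331 CPM. The libraries held 9067007 to 11388999 reads, and the fragments took 12269 to 16133 of them. The labelled tissue was checked on miRNAs known for cell types. The 3 neuronal miRNAs (miR-124-3p, miR-9-5p and miR-128-3p) summed to between 169186 and 195706 CPM, whereas miR-122-5p of liver lay at 5.01 to 7.11 CPM and the 2 miRNAs of muscle at 150 to 230 CPM. Those of red blood cells summed to between 1698 and 3374 CPM, and those of choroid plexus and ependyma to between 2397 and 3119 CPM, so that blood and ventricular lining were present. Of the 20 marker miRNAs examined, 8 did not overlap between the ages, 6 of them lower and 2 higher at 18 months. One of the 20, miR-486a-5p, had 0 sequences. With 2 libraries per age, a share of 0.33 without overlap arises where the ages do not differ. The share over all miRNAs was not computed, so the count of 8 is not read as a change. Among the 8, the neuronal miR-124-3p was lower in both 18 month libraries (98222 and 69405 CPM against 104115 and 107034 CPM), as was the endothelial miR-126a-3p (2557 and 6489 CPM against 9242 and 8854 CPM). The neuronal miR-9-5p (42830 and 25548 CPM, then 27655 and 43876 CPM) overlapped between the ages. So did miR-128-3p (37433 and 62462 CPM, then 69829 and 55905 CPM), both with a higher mean at 18 months. The neuronal sum overlapped as well. The part of these markers in the results below was not tested. In bulk tissue of this kind, fewer cells of a type and less RNA per cell cannot be told apart.

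A tRNA folds into a cloverleaf whose ends pair to form the acceptor stem, and after transcription an enzyme adds the bases CCA to its 3′ end, where the amino acid is later attached. Under stress, nucleases such as angiogenin cut in the anticodon loop and leave long stress-induced fragments (tiRNAs), and other cuts leave short fragments of either end or of the middle. Short fragments can enter the Ago proteins as miRNAs do, where the bases at positions 2 to 7, the 6mer seed, pair with target mRNAs. A seed that lowers cell viability when it is put into cells on a short duplex is called toxic, and the death it causes is called DISE (death induced by survival gene elimination).

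The 6 amino acids were grouped because their tRNAs are known for tiRNAs, and long reads were rare among the members. The RNA was selected by size on a gel, and the longest sequence of the whole table had 33 nt. The lengths therefore cannot show whether longer tiRNAs were present in the tissue. Reads of 30 nt or longer made up 0.262% and 0.310% of the member reads at 2 months, against 0.400% and 0.228% at 18 months, or 28 to 60 reads per library. The ages overlapped in this share, and a two-sided exact permutation test gave p = 1, where 2 libraries against 2 cannot go below 0.33. Between 93.8% and 94.9% of the reads were 18 to 24 nt long, and the widest 95% Wilson interval of this share reached 0.426 percentage points to a side (counting error only). The most frequent lengths were 19 and 20 nt, with 21.0% and 21.1% of the summed level. The longest member had 32 nt. The sequences are called fragments here, and whether they came from cuts in the anticodon loop was not tested.

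Sequences from among the 3 most abundant of each amino acid other than His are shown first, since they hold much of the level described later. They are written 5′ to 3′ as the table gives them, with T for U, and the capitals mark the 6mer seed. The number of nucleotides stands in each name.
Val 3′ end with an added A, 19 nt: aACCGGGcggaaacaccaa
Val 3′ end with an added T, 19 nt: aACCGGGcggaaacaccat
Gly (anticodon CCC) 3′ end with an added T, 19 nt: tTCCCGGgcggcgcaccat
Gly (anticodon CCC) 3′ end with an added A, 19 nt: tTCCCGGgcggcgcaccaa
Glu (anticodon TTC) 5′ end, 23 nt: tCCCACAtggtctagcggttagg
Glu (anticodon CTC) internal, 19 nt: cACCGCCgcggcccgggtt
Asp 5′ end, 23 nt: tCCTCGTtagtatagtggtgagt
Lys (anticodon CTT) 5′ end, 18 nt: gCCCGGCtagctcagtcg
Lys (anticodon CTT) 5′ end, 22 nt: gCCCGGCtagctcagtcggtag

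The His fragments are shown as a second set, since of the 6 amino acids His had the largest share of called sequences among those tested. The first 4 come from the middle of the tRNA and the last 4 from its 3′ end. The capitals again mark the seed.
His internal, 21 nt: tGGCCGCagcaacctcggttc
His internal, 22 nt: tGGCCGCagcaacctcggttcg
His internal, 23 nt: tGGCCGCagcaacctcggttcga
His internal, 22 nt, 1 base downstream: gGCCGCAgcaacctcggttcga
His 3′ end, ending in C, 20 nt: tCGAATCcgagtcacggcac
His 3′ end, ending in CC, 21 nt: tCGAATCcgagtcacggcacc
His 3′ end with an added T, 23 nt: tCGAATCcgagtcacggcaccat
His 3′ end with an added A, 23 nt: tCGAATCcgagtcacggcaccaa

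The position of the His fragments could be read from 1 gene. The RefSeq tRNA gene n-THgtg7 lies on GRCm38.p6 at chr3:96452495-96452566 on the plus strand, and 62 of its 72 bases were in the reference sequence used here. Its bases 29 to 58 (chr3:96452523-96452552) are shown with the anticodon, bases 34 to 36, in capitals.
n-THgtg7, bases 29 to 58: gcgttGTGgccgcagcaacctcggttcgaa
The 22 nt internal fragment matched bases 35 to 56 of this gene (chr3:96452529-96452550), so that it began at the middle base of the anticodon. The table gave it 8 tRNA gene names, RefSeq lists 10 His tRNA genes with this anticodon, and the level of such near-identical copies cannot be divided among the genes. Over all members the number of tRNA gene names per sequence had a median of 5 and a maximum of 13, and 75 members carried names of 2 anticodons.

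The fragments were divided by position, with the other reads of the table as the guide. A 3′ end was called tailed when a read ending in CCA was followed by 1 to 6 more bases, and shortened when such a read lacked its last 1 to 3 bases. A 5′ end was called where the first 7 bases could pair with the acceptor stem, and all other members were called internal. This gave 434 tailed 3′ ends, 83 shortened 3′ ends, 184 sequences at the 5′ end and 825 internal ones.

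The ages overlapped in the summed level of the fragments. It was 1493 and 1417 CPM at 2 months, against 1420 and 1353 CPM at 18 months, or 0.135% to 0.149% of all reads. The difference of -68.1 CPM gave p = 0.667 in the two-sided exact permutation test. Its direction depended on the scale: it was -53.8 CPM after rescaling by the median of ratios of the sequences, and 121 CPM, with both 18 month libraries higher, after rescaling by the median of ratios of the sums by isoacceptor and miRNA, a setting chosen after seeing the data. The other tRNA fragments without CCA had 2258 and 2469 CPM at 2 months, against 3575 and 3371 CPM at 18 months. The ratio of the 6 amino acids to these other tRNA fragments was accordingly 0.661 and 0.574 at 2 months, against 0.397 and 0.401 at 18 months, with no overlap (exact permutation p = 0.33, the smallest possible).

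The positions within the tRNA had unequal courses. Internal fragments were at 378 and 391 CPM at 2 months, against 514 and 433 CPM at 18 months. Their means differed by 89.5 CPM, of which the internal fragments of His held 75.2 CPM. By amino acid and anticodon, the internal means of AspGTC, GluTTC, GlyGCC, LysCTT and ValAAC were lower at 18 months, and the others higher. The higher internal class is thus mostly a difference in His. Tailed 3′ ends were the largest class, with 710 and 598 CPM at 2 months, against 587 and 554 CPM at 18 months. Fragments of the 5′ end were at 286 and 319 CPM and then at 219 and 282 CPM, and shortened 3′ ends at 119 and 109 CPM and then at 99.7 and 83.8 CPM. The internal class was thus higher and the other classes lower in both 18 month libraries on the CPM scale, but after rescaling by the sums the differences of the 5′ ends, shortened 3′ ends and tailed 3′ ends shrank to -15.9, -8.31 and -1.05 CPM and the ages overlapped (for the 5′ ends after either rescaling), while the internal class stayed higher without overlap. As a share of the reads of the 6 amino acids, internal fragments made up 25.3% and 27.6% at 2 months, against 36.2% and 32.03% at 18 months (exact permutation p = 0.33, with no overlap), and each of these shares had a Wilson interval of at most 0.826 percentage points to a side. Tailed 3′ ends made up 47.6% and 42.2% and then 41.4% and 41.0%.

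No amino acid as a whole passed the test between the ages. In limma on the log2 scale of the summed CPM, 0 of the 6 amino acids had an unadjusted p under 0.05, against 16.8% of the 476 sums of tRNA fragments by amino acid and of miRNAs by name that were tested. None passed after Benjamini-Hochberg adjustment, in limma, edgeR or DESeq2. The median log2 change of all these sums was itself -0.21 on the CPM scale, and changes are best read against this shift. Gly was at 367 and 387 CPM at 2 months, against 317 and 335 CPM at 18 months. Glu was at 334 and 352 CPM and then at 319 and 317 CPM. These were lower at 18 months without overlap, by log2 changes of -0.21 ± 0.19 and -0.11 ± 0.19 (SE), that is near or above the shift, and Glu changed sign, to 0.088, after rescaling by the median of ratios. Val was at 387 and 273 CPM at 2 months, against 384 and 323 CPM at 18 months, with the ages overlapping. His was at 229 and 185 CPM and then at 249 and 184 CPM, also overlapping. Lys, the least abundant, was at 77.7 and 74.5 CPM at 2 months, against 84.2 and 86.7 CPM at 18 months, and was higher at 18 months without overlap (log2 change 0.16 ± 0.20). Asp was at 97.2 and 144 CPM and then at 67.3 and 107 CPM, with overlap and the largest log2 change of the 6 (-0.48 ± 0.32, limma adjusted p = 0.444). Without 18 months replicate 2 the Asp change was -0.81 and passed the unadjusted threshold (adjusted p = 0.367).

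The isoacceptors, the tRNAs that share an amino acid but differ in anticodon, gave 0 of 10 with an unadjusted limma p under 0.05, against 17.6% of the 494 sums in that fit. After adjustment the count was 0 in limma, edgeR and DESeq2. ValCAC was the most abundant at 373 and 261 CPM at 2 months, against 373 and 317 CPM at 18 months. GlyCCC stood next and was the steadiest, at 264 and 262 CPM and then at 250 and 248 CPM. HisGTG, GluCTC (175 and 202 CPM, then 193 and 168 CPM), GluTTC (159 and 150 CPM, then 126 and 149 CPM) and AspGTC followed. The 10 isoacceptors tested were also compared within each library, as neighbours in order of mean level. In every library GluCTC stood above GluTTC, GluTTC above AspGTC and AspGTC above GlyTCC. GlyCCC stood above HisGTG in every library too, but narrowly in 18 months replicate 1 (250 against 249 CPM). The order of the other neighbours changed between libraries and is not separated.

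GlyTCC had the lowest p of the isoacceptors. Its levels were 59.6 and 72.7 CPM at 2 months, against 27.2 and 54.2 CPM at 18 months. Both 18 month libraries were below both 2 month libraries, and replicate 1 stood well below replicate 2 (log2 change -0.76 ± 0.36, limma adjusted p = 0.33). Without 18 months replicate 1 the log2 change was -0.28, and without 18 months replicate 2 it was -1.24 and passed the unadjusted threshold (limma adjusted p = 0.135). GlyGCC was at 44.0 and 52.5 CPM at 2 months, against 40.0 and 33.2 CPM at 18 months. LysCTT (41.8 and 50.7 CPM, then 49.3 and 51.6 CPM) and LysTTT (35.95 and 23.9 CPM, then 34.9 and 35.1 CPM) overlapped between the ages. ValAAC and ValTAC were below the minimum mean of 10 CPM and were not tested in this fit. ValAAC was at 8.58 and 8.52 CPM at 2 months, against 4.73 and 2.43 CPM at 18 months, with both 18 month libraries lower, and in the fit with no minimum it was the only 1 of the 12 isoacceptors with an unadjusted p under 0.05, against 12.9% of the 1075 sums (log2 change -1.11 ± 0.39, limma adjusted p = 0.279). ValTAC lay at 3.25 to 5.96 CPM, with overlap. The number of RefSeq genes did not order the isoacceptors: LysCTT has 24 genes and AspGTC 16, whereas GlyCCC has 6 and ValCAC 11.

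At the level of single sequences, 197 of the 1526 members had a mean of at least 1 CPM and entered the test. With an unadjusted limma p under 0.05, 17 were higher at 18 months, against 5.87% of the 14287 sequences tested, and 12 were lower, against 4.23%. Together these were 29 of 197 (14.7%), referred to as called, where 10.1% of all sequences tested were called. The median log2 change was -0.08 over the 197 and -0.01 over all sequences tested. After adjustment, limma called 0 of the 197, against 0.042% of all sequences (6 in number), and the lowest adjusted p of a member was 0.233. After adjustment, edgeR on the recovered reads called 0 of the 197, against 0.021% of all sequences, and DESeq2 called 1 (0.508%), against 0.546%. The calls were fewer without 2 months replicate 2 and without 18 months replicate 1, among the members and over all sequences alike. Such fits leave 1 library at an age, so their counts are not given here, and a fall in calls is not read as particular to the members. With no minimum, 94 of the 1526 members were called (6.16%), against 3.88% of all sequences, and with a minimum of 10 CPM 4 of 25 were, against 13.5%. The 1329 members under the minimum could not be judged singly at this depth.

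The called share ran from 2.08% in Glu to 39.1% in His, beside the 10.1% of all sequences. His gave 9 calls among 23 sequences tested, Gly 12 among 56 and Lys 4 among 14. Val gave 2 among 42, Asp 1 among 14 and Glu 1 among 48. By position, 12 of the 61 internal sequences tested were called (19.7%), 11 of them higher at 18 months. Of these 11, 6 were of His. Fewer were called higher without 18 months replicate 1, as was so over all sequences. Of the 79 tailed 3′ ends tested, 11 were called (13.9%), 9 of them lower. The 5′ ends, with 4 of 39 called (10.3%, 3 of them higher), and the shortened 3′ ends, with 2 of 18 (11.1%, 1 in each direction), were near the share of all sequences.

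His, whose sum overlapped between the ages, held fragments that went in opposite directions. Of its 12 internal sequences tested, 6 were higher at 18 months and 0 were lower. Of its 11 sequences tested at the 3′ end, 0 were higher and 3 were lower. Summed over all 87 internal His sequences, the level was 70.7 and 55.3 CPM at 2 months, against 147 and 129 CPM at 18 months. The 45 tailed 3′ ends were at 83.8 and 66.2 CPM at 2 months, against 52.5 and 17.2 CPM at 18 months. The 22 shortened 3′ ends were at 74.4 and 63.4 CPM and then at 48.7 and 37.7 CPM. In each of these 3 sums the ages did not overlap, on the CPM scale and after both rescalings. Internal fragments made up 30.8% and 29.9% of the His reads at 2 months, against 59.1% and 70.2% at 18 months (95% Wilson intervals 29.01 to 32.7%, 27.97 to 31.9%, 57.3 to 61.0% and 67.96 to 72.3%), for which the exact permutation test gave its smallest p, 0.33.

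The 22 nt internal His fragment had the lowest p of the His sequences. It was at 18.2 and 16.4 CPM at 2 months (191 and 187 reads), against 63.5 and 39.9 CPM at 18 months (671 and 362 reads). Both 18 month libraries were above both 2 month libraries, and the log2 change of 1.49 ± 0.34 had a limma adjusted p of 0.233. It was the 1 member among the 78 sequences that DESeq2 called after adjustment (adjusted p = 0.0285), whereas edgeR gave an adjusted p of 0.281. Left-out libraries moved its log2 change between 1.16 and 1.82.

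The neighbouring internal His fragments were higher at 18 months as well. The 21 nt form, 1 base shorter at its 3′ end, was at 4.01 and 3.07 CPM at 2 months, against 11.0 and 10.9 CPM at 18 months (log2 change 1.40 ± 0.33, limma adjusted p = 0.244). The 23 nt form was at 19.3 and 11.8 CPM and then at 33.3 and 28.8 CPM (0.99 ± 0.34, limma adjusted p = 0.397), and it lost its call without 2 months replicate 2 or 18 months replicate 1. The form that began 1 base downstream was at 1.05 CPM in both 2 month libraries and at 4.07 and 5.07 CPM at 18 months (1.43 ± 0.34, limma adjusted p = 0.247). The ages did not overlap in any of these 3 sequences. They share most of their bases with the 22 nt fragment and are not independent observations.

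Placed on n-THgtg7, the level of the 44 His members that matched it exactly was concentrated on 1 starting base, although only 7 of the 44 began there. The 7 sequences of 19 to 25 nt that began at base 35 summed to 45.2 and 32.6 CPM at 2 months, against 112 and 86.5 CPM at 18 months. Those that began at base 36 were at 2.19 and 2.11 CPM and then at 6.90 and 9.71 CPM, and those that began at base 37 at 3.53 and 4.39 CPM and then at 7.57 and 9.48 CPM. All 3 starts, in or next to the anticodon, were higher at both 18 month libraries. Fragments that began at base 26, upstream of the anticodon, were at 1.62 and 2.72 CPM at 2 months, against 0.945 and 0.441 CPM at 18 months, close to the 3 read limit. Few HisGTG reads were called 5′ ends by the pairing rule, with 4 and 2 reads at 2 months, against 4 and 0 reads at 18 months. A His 5′ end whose first 7 bases did not pair by this rule would be counted as internal. These counts therefore cannot show that 5′ ends of HisGTG were missing. For the 0 of 1671 reads in 18 months replicate 2, the Wilson interval of the called share reached 0.229%.

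The 3′ ends of HisGTG were lower at 18 months. The 23 nt form with an added T was at 38.2 and 28.9 CPM at 2 months, against 22.2 and 6.84 CPM at 18 months, and the form with an added A at 17.4 and 14.7 CPM and then at 12.2 and 3.97 CPM. The 20 nt form that ended in C was at 18.2 and 14.05 CPM and then at 7.66 and 7.61 CPM. Their log2 changes were -1.34 ± 0.48, -1.07 ± 0.46 and -0.98 ± 0.32, with limma adjusted p of 0.411, 0.476 and 0.380. None of the 3 had overlapping ages, but 18 months replicate 2 was far below replicate 1 in the tailed forms, and without it they had log2 changes of -0.56 and -0.36 and no call. The form with an added A also lost its call without 2 months replicate 2, in edgeR and in DESeq2, and the 20 nt form lost it without 18 months replicate 1 or 2. The number of the 11 tested 3′ ends called lower depended on which library was left out. The most abundant 3′ end, the 21 nt form that ended in CC, was at 43.9 and 38.9 CPM and then at 32.8 and 20.7 CPM (-0.64 ± 0.34, limma adjusted p = 0.557).

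The His reads that ended in CCA, which are not members, had 469 and 444 CPM at 2 months, against 386 and 106 CPM at 18 months. Of the tailed, shortened and CCA-ending His reads together, tailed ends were 13.4% and 11.5% at 2 months, against 10.8% and 10.7% at 18 months. Both 18 month libraries were lower in this share, by 1.73 percentage points on average. The tailed, the shortened and the CCA-ending His reads were each lower in level.

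Gly gave the largest number of calls of the 6 amino acids, 6 in each direction. These numbers depended on which library was left out. In GlyTCC, 4 of the 7 tailed 3′ ends tested were lower and 0 higher, with fewer lower without 18 months replicate 1 and more without 18 months replicate 2. The tailed 3′ ends of GlyTCC summed to 41.1 and 48.6 CPM at 2 months, against 3.12 and 29.01 CPM at 18 months. Both 18 month libraries were below the 2 month libraries, and they lay farther from each other than the higher of them lay from 2 months. The GlyTCC sequence called with the largest fall in CPM ended in an added A.
Gly (anticodon TCC) 3′ end with an added A, 19 nt: tTCCCGGccaacgcaccaa
It was at 7.63 and 7.29 CPM at 2 months, against 1.04 and 4.74 CPM at 18 months (log2 change -1.31 ± 0.47, limma adjusted p = 0.416), and without 18 months replicate 1 the change was -0.56 and not called. The GlyTCC reads ending in CCA were at 44.6 and 49.2 CPM and then at 8.89 and 32.8 CPM, with the same library lowest.

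In GlyCCC, 5 sequences were higher and 2 lower among 38 tested. The 5 became 2 in edgeR and 1 in DESeq2, and were fewer without 2 months replicate 2 or without either 18 month library. Its internal fragments summed to 25.1 and 31.3 CPM at 2 months, against 46.4 and 38.9 CPM at 18 months, and its tailed 3′ ends to 211 and 202 CPM and then to 167 and 177 CPM. Neither sum overlapped between the ages, on the CPM scale or after either rescaling, beside a GlyCCC sum with a log2 change of -0.08 ± 0.19 that turned to 0.11 when rescaled by the sums. Its most abundant sequence, the 19 nt 3′ end with an added T, was at 53.9 and 48.1 CPM at 2 months, against 36.5 and 42.2 CPM at 18 months (log2 change -0.37 ± 0.30, limma adjusted p = 0.711). The same 3′ end with an added A was at 34.05 and 29.8 CPM and then at 41.3 and 32.9 CPM, with overlap (0.21 ± 0.31), and with TT it was at 22.98 and 23.4 CPM and then at 19.1 and 21.2 CPM (-0.20 ± 0.31). The GlyCCC sequence called with the largest fall lacked the first T of these and carried TT.
Gly (anticodon CCC) 3′ end with TT, 1 base shorter at its 5′ end, 19 nt: tCCCGGGcggcgcaccatt
It was at 3.43 and 5.53 CPM at 2 months, against 1.23 and 1.10 CPM at 18 months (-1.31 ± 0.36, limma adjusted p = 0.301).

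Lys fragments were mostly 5′ ends, the part of the tRNA that holds the D arm. LysCTT 5′ ends summed to 33.4 and 36.4 CPM at 2 months, against 40.0 and 41.1 CPM at 18 months, and LysTTT 5′ ends to 15.5 and 9.39 CPM and then to 19.01 and 15.99 CPM. Neither overlapped between the ages. Of the 8 Lys 5′ ends tested, 3 were higher and 0 lower, and fewer were higher without 2 months replicate 2 or without 18 months replicate 1. The 22 nt LysCTT 5′ end was at 1.43 and 4.30 CPM at 2 months (15 and 49 reads), against 8.70 and 7.83 CPM at 18 months (92 and 71 reads), a log2 change of 1.37 ± 0.42 (limma adjusted p = 0.342) that lost its call without 2 months replicate 1 or 18 months replicate 1. The 18 nt LysCTT 5′ end, which has the same start, was the most abundant Lys fragment and was at 23.2 CPM in both 2 month libraries and at 19.9 and 24.8 CPM at 18 months. Only the longer of these fragments was called, and a difference between the 2 lengths was not tested. The LysTTT 5′ end of 22 nt was at 6.30 and 4.13 CPM and then at 6.24 and 5.74 CPM, with overlap.

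Val fragments were mainly tailed 3′ ends of ValCAC, with 345 and 223 CPM at 2 months, against 339 and 288 CPM at 18 months. The 2 month libraries lay farther apart than the ages. The 19 nt form with an added A was at 56.3 and 27.0 CPM at 2 months, against 60.1 and 49.3 CPM at 18 months, the form with an added T at 58.4 and 28.4 CPM and then at 46.7 and 36.8 CPM, and the form with AA at 34.9 and 16.4 CPM and then at 34.6 and 25.7 CPM. All 3 overlapped between the ages, with limma adjusted p of 0.710, 0.991 and 0.828, and 2 months replicate 2 was the lowest library in each. In the 1 ValCAC gene whose sequence was used here, n-TVcac9 at chr13:23446142-23446214 on the minus strand of GRCm38.p6, the 73 bases of the gene are followed by GTTTGGTA, so that neither the CCA nor the added bases stand in this gene.

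Asp fragments were led by the 5′ end. The 23 nt form was at 39.8 and 49.1 CPM at 2 months, against 19.1 and 33.1 CPM at 18 months. Both 18 month libraries were lower (log2 change -0.79 ± 0.35, limma adjusted p = 0.496). The forms 1 and 2 bases shorter at the 3′ end were at 10.5 and 16.3 CPM, then 6.81 and 10.6 CPM, and at 2.58 and 4.39 CPM, then 2.46 and 2.10 CPM. All Asp 5′ ends together were at 63.2 and 86.1 CPM at 2 months, against 34.0 and 54.0 CPM at 18 months, without overlap, whereas internal Asp fragments were at 24.5 CPM in both 2 month libraries and at 21.0 and 25.04 CPM at 18 months.

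Glu gave the fewest calls for its number of tested sequences. The 5′ ends of GluTTC were at 107 and 104 CPM at 2 months, against 79.2 and 105 CPM at 18 months. Their most abundant form of 23 nt was at 31.4 and 43.2 CPM and then at 24.7 and 27.9 CPM (log2 change -0.47 ± 0.32), and the form 1 base shorter was at 23.5 and 18.7 CPM and then at 26.2 and 26.0 CPM (0.30 ± 0.31). These went in opposite directions without overlap, with limma adjusted p of 0.654 and 0.771. The GluCTC internal fragments, the largest internal group at 2 months, were at 130 and 138 CPM at 2 months, against 160 and 116 CPM at 18 months, and their most abundant sequence was at 30.04 and 34.6 CPM and then at 36.03 and 23.8 CPM, with overlap in both cases.

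The reads concentrated on few starts and few seeds. Reads that began with the same 12 bases as the most abundant member of their isoacceptor made up 54.1% and 49.8% of the reads at 2 months, against 56.1% and 56.0% at 18 months (exact permutation p = 0.33, the smallest possible). By isoacceptor this share ran from 13.0% in ValTAC to 77.5% in LysCTT and was 34.05% in HisGTG. The members carried 271 distinct 6mer seeds, and the 10 most abundant held 67.2% of the summed level.

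These 10 seeds differed widely in viability, the mean viability in percent of the control of 3 mouse cell lines given a duplex with that seed. ACCGGG, of the Val 3′ ends, has a viability of 71.2% and was at 265 and 161 CPM at 2 months, against 258 and 213 CPM at 18 months. UCCCGG (67.0%), shared by fragments of Gly and Glu and led by the Gly 3′ ends, was at 247 and 244 CPM and then at 185 and 213 CPM. CCCACA (68.9%), of the GluTTC 5′ ends, was at 89.7 and 87.2 CPM and then at 66.6 and 86.1 CPM. CCUCGU (62.4%), of the Asp 5′ ends, was at 63.1 and 85.8 CPM and then at 34.0 and 53.9 CPM. The last 3 of these were lower in both 18 month libraries, except that CCCACA overlapped after rescaling by the sums.

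The abundant seeds of lower viability had unequal courses. GGCCGC (8.3%), given with the His seeds below, was higher in both 18 month libraries. All seeds with a viability under 20% together also took a larger share of the reads in both 18 month libraries, as given below. The other 4 abundant seeds of lower viability follow here. ACCGCC (30.9%), of GluCTC fragments led by the internal 19 nt sequence, was at 67.7 and 71.5 CPM at 2 months, against 83.5 and 61.3 CPM at 18 months. CCGGGC (9.3%), of Val and GlyCCC fragments, was at 49.8 and 46.7 CPM and then at 54.0 and 48.0 CPM. CCCGGC (38.5%), led by the LysCTT 5′ ends, was at 38.9 and 47.0 CPM and then at 41.4 and 45.3 CPM, and CCCUGG (46.1%), of Glu fragments, at 39.9 and 52.0 CPM and then at 25.8 and 40.1 CPM. All 4 overlapped between the ages, except that CCGGGC and CCCGGC were higher without overlap after rescaling by the sums.

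The largest differences among the 10 seeds were in His. GGCCGC, the seed of the internal fragments that begin at base 35, has a viability of 8.3% and was at 46.5 and 32.9 CPM at 2 months, against 117 and 93.3 CPM at 18 months. CGAAUC, the seed of the His 3′ ends, has a viability of 74.4% and was at 128 and 108 CPM at 2 months, against 82.4 and 44.1 CPM at 18 months. Neither overlapped between the ages, and on the CPM scale GGCCGC was the only 1 of the 10 seeds that was higher in both 18 month libraries. Over all sequences, 31 carried GGCCGC, of which 17 were His members and 0 were miRNAs, and the 31 summed to 48.3 and 34.9 CPM at 2 months, against 119 and 96.7 CPM at 18 months.

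The mean seed viability of the fragments, weighted by CPM, was 59.4% and 58.4% at 2 months, against 55.3% and 56.0% at 18 months. Both 18 month libraries were lower, by 3.25 percentage points on average, and the exact permutation p was 0.33, the smallest that 2 libraries against 2 allow. With a weighted median in place of the mean the difference was 0.0 percentage points (exact permutation p = 1). Without the GGCCGC sequences the means were 61.0% and 59.6% at 2 months, against 59.5% in both 18 month libraries, a difference of -0.80 percentage points. Over all sequences of the table the mean was 57.7% and 57.9% at 2 months, against 58.1% and 58.4% at 18 months, with both 18 month libraries higher. The other tRNA fragments without CCA were also higher at 18 months, from 63.0% and 62.7% to 65.9% and 66.1%, and the CCA-ending fragments of the same 6 amino acids overlapped between the ages (65.5% and 64.0%, then 65.1% and 63.0%). Seeds with a viability under 20% took 7.58% and 7.12% of the reads of the 6 amino acids at 2 months, against 13.6% and 13.0% at 18 months (exact permutation p = 0.33, with no overlap), and GGCCGC alone 3.12% and 2.32% and then 8.20% and 6.90%. Seeds with a viability of 70% or more took 36.8% and 30.6% and then 35.8% and 30.9%, with overlap.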

How the data were processed

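Ago-bound small RNAs were measured in 4 libraries, grouped by the age in the sample labels. The authors trimmed the reads, dropped the rare ones, named what was left by BLAST against lists of mouse small RNAs (tRNA names refer to an mm9 list) and deposited normalized counts (CPM) per sequence and library. The submitters' processing notes name Trim Galore, and its version is not given in the sources used here. The deposited table also holds a score, the seed viability of 3 mouse cell lines, and row totals, which were used to recover the number of reads per library. No per-sample column was left unassigned.

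Members, gene lists and tests were chosen with earlier results of these data known. Whole reads were recovered from 100% of the CPM values (within 0.0006 CPM), so the total count per library is known, and the smallest sequence had 4 reads over the libraries. The study's methods name no test for single sequences. Here limma 3.58.1 with an intensity trend (R 4.3.3) tested age alone, two-sided, on log2(CPM + 1) over the 14287 sequences whose mean reached 1 CPM and over sums that reached 10 CPM. On the recovered reads, edgeR 4.0.16 called 1360 sequences at an unadjusted p under 0.05 and DESeq2 1.42.0 called 941. Fold changes are on the log2(CPM + 1) scale, which understates those of low sequences. Single values of the libraries went into exact permutation tests. The limma fits were tested on simulated data. Python 3.11.15, numpy 2.4.6, pandas 2.3.3 and scipy 1.17.1 were used.

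The text names the 6 amino acids, each isoacceptor of at least 10 CPM, the 3 most abundant sequences of each amino acid, the 5 largest rises and 5 largest falls (in mean CPM) of called sequences whose ages did not overlap, and the 10 most abundant seeds. ValAAC, ValTAC, the position classes and the start bases were added after their values were seen. The alternatives were a replicate block, other pseudocounts, filters, scaling and tools, CCA-ending reads included, other cut-offs for length and start, and each library left out in turn. In the labels, same-numbered libraries share only a number. The libraries of an age were not copies of each other (chi-square per degree of freedom 7.61 and 7.13). Mouse tRNA genes and sequence are from RefSeq (GRCm38.p6), and 44 His and 36 Val members matched exactly.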

Additional observations from a re-analysis of the deposited data

How the results depend on the processing

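Over the alternatives, 470 values of single sequences and sums kept their direction and their side of the threshold (p of 0.05), 33 changed sign, 17 lost the call and 11 gained it. Of the counts and library values, 69 held and 16 moved. With CCA-ending reads included, the difference in summed level was -334 CPM, that in the leading 5′ end share -4.32 percentage points and that in the ratio to other tRNA fragments -0.274. Rescaled by the median of ratios of the sums (chosen after seeing the data), the summed level differed by 121 CPM. Mean seed viability differed by -3.96 points in sequences of at least 1 CPM, and by 0.0 when a weighted median replaced the mean. Without a filter 94 of 1526 members were called (6.16%, against 3.88% of all sequences), at 10 times the minimum CPM 4 of 25 (2 in each direction, against 13.5%), and after adjustment 0. Left-out libraries gave 19 to 34 called sequences, 0 to 2 isoacceptors (GlyTCC and AspGTC, both lower, without 18 months replicate 2) and 0 to 1 amino acids. Fits with a library left out have 1 library at an age. The number of calls over all sequences and sums changed in them too, so these ranges are not read as particular to the members. Without a filter 1 isoacceptor sum, ValAAC, was lower. The replicate block called 2 isoacceptors (GlyTCC and AspGTC, both lower), against 96 of the 494 sums in that fit. It called 1 amino acid (Asp), against 91 of 476 sums, and 32 sequences (16.2%), against 1530 of 14287. Same-numbered libraries correlated by 0.072 over 197 sequences, which does not settle whether they were prepared together.

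Sums that changed sign were GluCTC (0.15 in edgeR, 0.13 in DESeq2, 0.13 rescaled), GluTTC (0.029, 0.017 and 0.014), GlyCCC (0.13, 0.11 and 0.11) and Glu (0.10, 0.088 and 0.088), and HisGTG without its most abundant sequence (-0.21). Left-out libraries gave -0.16 to 0.043 for GluCTC, -0.16 to 0.27 for HisGTG and His, -0.0066 to 0.27 for LysCTT, -0.038 to 0.53 for LysTTT, -0.12 to 0.40 for ValCAC and -0.14 to 0.37 for Val. Among sequences, the Val 3′ end with an added T was -0.033 in edgeR and -0.031 in DESeq2 and -0.48 to 0.53 with libraries left out. Left-out libraries also turned the Val 3′ ends with A (-0.046 to 0.99) and AA (-0.22 to 0.82), the GluCTC internal fragment (-0.42 to 0.16), the 18 nt LysCTT 5′ end (-0.21 to 0.095) and the 22 nt LysTTT 5′ end (-0.063 to 0.45). The causes were not tested. With 2 libraries per age, differences near the spread between them and sequences under 1 CPM could not be judged.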

Other observations

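Many abundant fragments were accompanied by sequences that differ from them at 1 base, with positions counted from 1 at the 5′ end of the fragment. The His 3′ ends carried A4T and A4G, inside the seed: for the 23 nt form with an added T the sequence with A4T had 14.1% of its level (3.82 and 4.57 CPM at 2 months, 3.88 and 1.32 CPM at 18 months) and the one with A4G 4.04%. For the 23 nt form with an added A the same substitutions had 16.2% and 5.44%, and for the 21 nt form that ended in CC 6.19% and 3.67%. The 23 nt GluTTC 5′ end had C6T at 23.9% of its level, with 7.44 and 9.83 CPM at 2 months, against 4.44 and 8.71 CPM at 18 months, and G9T at 7.27%. The 22 nt form had C6T at 16.6% and G9T at 4.63%. The 23 nt Asp 5′ end had G20T at 5.29%. In the internal His fragments of 22 and 23 nt, by comparison, 4 and 5 such sequences summed to 3.15% and 3.12%, and in the Val 3′ ends they summed to at most 0.451%. The source of these sequences was not tested.

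The tails of the 3′ ends were short and made of A and T. A tail of 1 base was carried by 51.3% and 46.5% of the tailed reads at 2 months, against 48.9% and 47.3% at 18 months. Tails of A and T alone made up 89.6% to 91.3% of the tailed reads. Tails of T alone were on 44.2% and 50.7% of the tailed reads at 2 months, against 37.7% and 42.0% at 18 months, and tails of A alone on 33.7% and 27.0% and then on 40.3% and 34.6%. The ages did not overlap for either, and the exact permutation p was 0.33 for each, the smallest possible. Of the tailed, shortened and CCA-ending reads of the 6 amino acids together, tailed ends were 41.4% and 38.2% at 2 months. At 18 months they were 39.9% and 51.9%, with overlap. In the 3 isoacceptors with the most such reads, this share was 54.0% to 68.1% in ValCAC, 48.8% to 58.3% in GlyCCC and 10.7% to 13.4% in HisGTG.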
